A study of Homo sapiens with 12 samples.

Results

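KURAMOCHI cells treated with THZ1 at 250 nM were compared with the same cells treated at 50 nM, to find which transcripts were lost only at the step to the higher dose. KURAMOCHI (Ku) is a human ovarian cancer cell line, and THZ1 is a covalent kinase inhibitor. The comparison rests on 4 of the 12 RNA-seq libraries of the series, 2 replicates at each dose, all collected 6 hr after treatment and chosen by their labels. The sample titles give only replicate numbers, so whether the replicates came from separate cultures is unknown. The 2 Ku libraries treated with DMSO, the vehicle, show what had already changed at 50 nM. The 6 libraries of COV362 (Cov), another ovarian cancer line given the same 3 treatments for 6 hr, show how the same genes behaved in libraries that were not used to choose them. Each line stands for 1 genetic background, and no kinase was deleted or replaced in any group, so the response to the inhibitor is seen only as a whole. Of the 23713 rows in the Ku table, 92 are ERCC spike-ins, synthetic RNAs added in known amounts. Of the gene rows, 14251 had more than 1 FPKM (fragments per kilobase of transcript, scaled to library size) in at least 1 of the 12 libraries and were tested.

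THZ1 binds CDK7 and, at higher concentrations, CDK12 and CDK13. CDK7 is the kinase of the general transcription factor TFIIH, which phosphorylates the tail of RNA polymerase II as transcription starts, and it also activates other CDKs. CDK12 and CDK13, each with cyclin K, phosphorylate the same tail further along the gene and are known for keeping polymerase moving through long genes. When transcription is blocked, an mRNA falls as fast as it decays, so short-lived mRNAs are the first to be lost and stable ones can stay high for hours.

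The FPKM had been normalized to the spike-ins after RNA was taken in proportion to cell number, so a fall of most transcripts remains visible. In bulk RNA, fewer cells of a type and less RNA per cell cannot be told apart. The gene FPKM of a library summed to 1023000 and 976300 at 50 nM and to 662900 and 607000 at 250 nM. Replicates agreed across the tested genes with Pearson's r of 0.975 at 50 nM and 0.983 at 250 nM. The depth of the libraries is unknown. Of 7 epithelial and serous markers, 6 were above 1 FPKM in all 4 libraries, among them KRT8 at 1447 to 2612 FPKM and PAX8 at 11.5 to 42.5, while MUC16 stayed under 1. Under 1 FPKM in all 4 were 3 of 4 blood cell markers, 3 of 5 fibroblast markers and 2 of 4 endothelial markers. The fibroblast markers summed to 9.42 to 9.53 FPKM at 50 nM and to 6.35 to 6.39 at 250 nM, and the part of other cells in the results was not tested.

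At the step from 50 to 250 nM, 5132 genes fell and 6 rose. These counts are 36% and 0.0421% of the genes tested, by limma at a log2 fold change of FPKM + 1 beyond 0.5 and a Benjamini-Hochberg adjusted p under 0.001. The median gene changed by -0.62 on this log2 scale (range -0.68 to -0.58 over the 4 pairs of libraries), with quartiles of -1.08 and -0.29. From DMSO to 50 nM the median change was -0.40, and 1607 genes, 11.3%, had fallen. Of the 5132 genes that fell at the higher step, 692 had already fallen at 50 nM, 4430 passed the test in neither direction there, and 10 had risen. Both comparisons share the 50 nM libraries, so a library value that lies high at 50 nM lowers the apparent early change and enlarges the later one. For 1 gene in 2 libraries against 2 the lowest p of an exact permutation test is 0.33, and the calls therefore rest on the spread shared across genes in the limma fit. The number that fell was 1603, 839, 1022 and 791 without 50 nM replicate 2, 50 nM replicate 1, 250 nM replicate 2 and 250 nM replicate 1 in turn, and 4589 and 4599 without either DMSO library.

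Transcripts lost only at the step to 250 nM, here called late-loss genes, were defined by 3 limits. They had stayed within 0.25 log2 units of DMSO at 50 nM with an adjusted p of 0.05 or more, fell at the step by the test above, and had a step of -1 or lower. This class holds 919 genes, 6.45% of those tested and 17.9% of those that fell. Leaving out 1 library gave 1115 and 627 such genes without DMSO replicate 1 and 2, 190 and 504 without 50 nM replicate 1 and 2, and 197 and 263 without 250 nM replicate 1 and 2, of which 782, 585, 171, 385, 190 and 254 were among the 919. Of the 4467 genes that had held at 50 nM, 20.6% belonged to it. The median FPKM in the class was 4.16 at 250 nM, 15.9 at 50 nM and 17.0 with DMSO. The median gene kept 29.5% of its 50 nM level. In 157 of them the step was -2 or lower and in 17 it was -3 or lower. In 589 the 50 nM and DMSO libraries overlapped. In all 919 both 250 nM libraries lay under both 50 nM libraries, as they did for 87.7% of the genes tested, so this order alone sets nothing apart. The limits cut a continuous range. BCLAF1 lay just inside with a step of -1.001, and SOCS6 just outside with -0.9997. The call of BCLAF1 was lost without any 1 of the 4 libraries compared and those of SOCS6 and CCDC93 without any 1 of the 6 Ku libraries (adjusted p of up to 0.00273, 0.00704 and 0.00894). At the limit for 50 nM, CORO1A lay inside with a change of -0.2500, and CCDC93 outside with -0.2503.

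**Figure D1:**
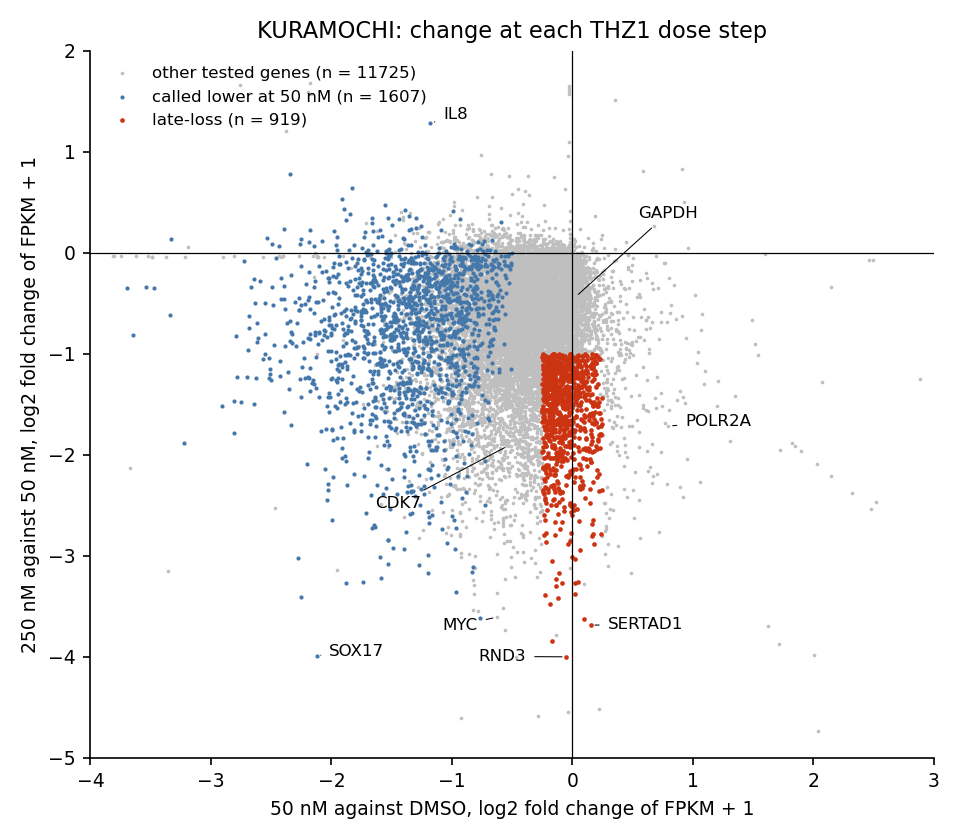
Each point is 1 of the 14251 genes tested in KURAMOCHI, with the log2 fold change of FPKM + 1 from DMSO to 50 nM THZ1 on the x axis and from 50 nM to 250 nM on the y axis (95 genes lie outside the axes). The 919 late-loss genes form a column under 0 on the x axis, RND3 at its foot, while the 1607 genes called lower at 50 nM lie to the left, and POLR2A lies to the right of it.

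The class depends on the spike-in scale. Scaling each library by the median of its ratios to the mean library moved the median step by 0.66, to 0.0343, and 399 of the 919 genes still passed as lower at the step, at a median of -0.76. Of the 416 genes that met all 3 limits on that scale, 16 were among the 919. With libraries set to equal median FPKM 234 of the 919 passed as lower at the step, at a median of -0.45, and none was among the 210 genes that met all 3 limits there. On the same scale 1582 genes were called lower and 198 higher at the step, and with equal medians 939 and 943, so that falls made up 88.9% and 49.9% of the calls in place of 99.9%. The changes below are on the spike-in scale and are read against its median step of -0.62.

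The largest late losses were in RND3, NUAK2, SERTAD1, FAM46B, DUSP5, FAM53C, YTHDF2, TRIB1, CCNE1 and DEDD2. These are the 10 with the most negative steps among late-loss genes with a mean of at least 5 FPKM at 50 nM. RND3 (ENSG00000115963, chr2:151324709-151395525 of GRCh37, the build called hg19) encodes a protein that opposes actin stress fibres. Its levels were 53.9 and 45.2 FPKM with DMSO, 49.97 and 45.5 at 50 nM, and 2.23 and 1.87 at 250 nM. The DMSO and 50 nM libraries overlapped, and both 250 nM libraries were far under them, for a step of -4.0 ± 0.12 (SE, adjusted p = 2.79e-05). NUAK2 (ENSG00000163545, chr1:205271191-205290873), an AMPK-related kinase, measured 30.4 and 25.6 FPKM with DMSO, 25.8 and 23.8 at 50 nM, and 0.7002 and 0.885 at 250 nM. Its step was -3.85 ± 0.13 (SE, adjusted p = 3.12e-05), and it ended under 1 FPKM. SERTAD1 (ENSG00000197019, chr19:40927496-40931899), a CDK4-binding transcriptional coregulator, measured 52.97 and 49.4 FPKM with DMSO, 56.6 and 57.4 at 50 nM, and 3.39 and 3.63 at 250 nM. It was slightly above DMSO in both 50 nM libraries before a step of -3.69 ± 0.08 (SE, adjusted p = 2.27e-05). FAM46B (ENSG00000158246, chr1:27331511-27339341), a poly(A) polymerase of the TENT5 family, had 18.4 and 17.4 FPKM with DMSO, 19.04 and 19.4 at 50 nM, and 0.633 and 0.654 at 250 nM. Both 50 nM libraries again lay above both DMSO libraries, and the step was -3.62 ± 0.11 (SE, adjusted p = 2.79e-05).

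DUSP5 (ENSG00000138166, chr10:112257665-112271291), a nuclear phosphatase that switches off ERK, measured 27.9 and 22.6 FPKM with DMSO, 22.2 and 21.8 at 50 nM, and 1.14 and 1.002 at 250 nM, a step of -3.47 ± 0.13 (SE, adjusted p = 3.93e-05). FAM53C (ENSG00000120709, chr5:137667624-137685418) measured 37.3 and 31.8 FPKM with DMSO, 33.1 and 30.1 at 50 nM, and 1.82 and 2.299 at 250 nM, a step of -3.42 ± 0.13 (SE, adjusted p = 4.05e-05). YTHDF2 (ENSG00000198492, chr1:29063133-29096287), which binds N6-methyladenosine in mRNAs and hastens their decay, was the most abundant of the 10. Its levels were 100.4 and 85.9 FPKM with DMSO, 82.04 and 76.5 at 50 nM, and 7.02 and 6.34 at 250 nM, and its step was -3.39 ± 0.10 (SE, adjusted p = 2.79e-05). TRIB1, a pseudokinase that brings substrates to the ubiquitin ligase COP1, measured 15.7 and 13.5 FPKM with DMSO, 15.7 and 13.9 at 50 nM, and 0.526 and 0.511 at 250 nM, a step of -3.38 ± 0.13 (SE, adjusted p = 4.21e-05). CCNE1 (ENSG00000105173, chr19:30302898-30315219), cyclin E1, the partner of CDK2 at entry into S phase, measured 41.5 and 38.2 FPKM with DMSO, 36.7 and 35.4 at 50 nM, and 2.91 and 2.64 at 250 nM. Its 50 nM libraries lay just under both DMSO libraries and its step was -3.30 ± 0.09 (SE, adjusted p = 2.63e-05). DEDD2 (ENSG00000160570, chr19:42702750-42724292), a nuclear protein with a death effector domain, measured 34.9 and 34.2 FPKM with DMSO, 34.4 and 35.7 at 50 nM, and 2.56 and 2.91 at 250 nM, a step of -3.27 ± 0.09 (SE, adjusted p = 2.63e-05). All 10 kept their call as lower at the step on both alternative scales. Their place in the late-loss class is on the spike-in scale, since with equal medians none of the 919 was late-loss and with median-of-ratios scaling 16 were. With any 1 library left out their steps were -3.203 or lower, in fits where the lone library left at a dose is assumed to vary like the other groups.

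**Figure D2:**
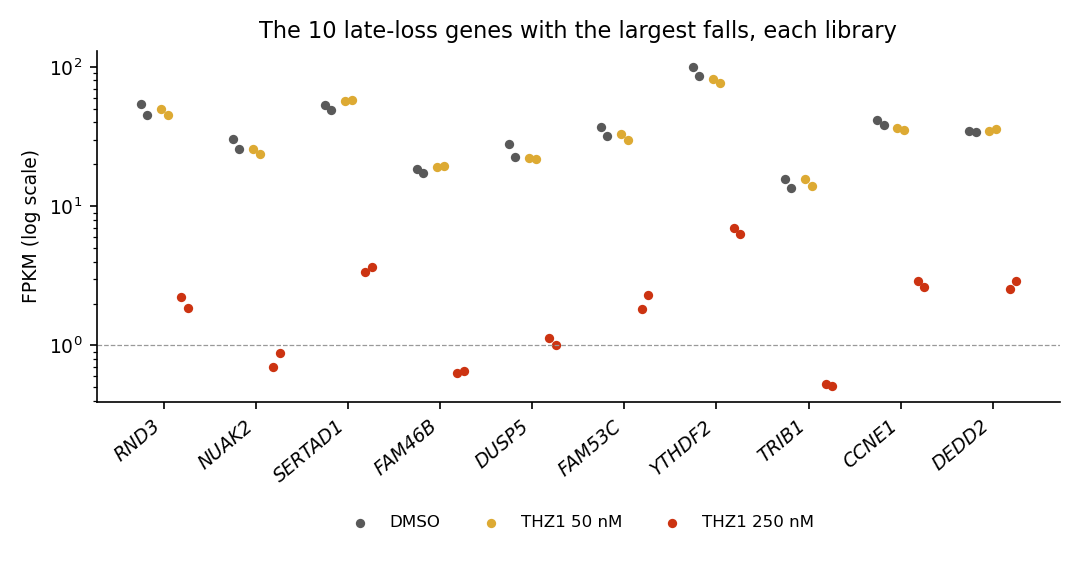
FPKM on a log axis in each KURAMOCHI library for the 10 late-loss genes with the largest falls, 2 points per condition (grey DMSO, yellow THZ1 50 nM, red THZ1 250 nM) and a dashed line at 1 FPKM. DMSO and 50 nM points lie side by side between 13.5 and 100.4 FPKM, and every 250 nM point is at 7.02 FPKM or lower.

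The promoters of 4 of these genes are shown because they lost their mRNA at the same dose and yet differ in their start-site sequence. Each is 300 bases, 250 before and 50 after the RefSeq start on GRCh38.p14, another build than the files use, written 5′ to 3′ along the gene. Capitals mark matches on either strand to the TATA box TATAAA, the GC box GGGCGG, the E-box CACGTG, the CRE TGACGTCA, the AP-1 site TGANTCA or the CCAAT box, which do not overlap each other here. RND3 lies at chr2:150487646-150487945, minus strand, NUAK2 at chr1:205321696-205321995, minus strand, SERTAD1 at chr19:40425943-40426242, minus strand and CCNE1 at chr19:29811741-29812040, plus strand.
RND3: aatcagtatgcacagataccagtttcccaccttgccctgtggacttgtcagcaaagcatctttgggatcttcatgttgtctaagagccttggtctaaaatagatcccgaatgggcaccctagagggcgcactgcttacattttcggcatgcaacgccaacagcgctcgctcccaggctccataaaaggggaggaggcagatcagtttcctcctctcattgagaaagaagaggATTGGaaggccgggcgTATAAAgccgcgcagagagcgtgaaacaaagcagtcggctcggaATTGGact
NUAK2: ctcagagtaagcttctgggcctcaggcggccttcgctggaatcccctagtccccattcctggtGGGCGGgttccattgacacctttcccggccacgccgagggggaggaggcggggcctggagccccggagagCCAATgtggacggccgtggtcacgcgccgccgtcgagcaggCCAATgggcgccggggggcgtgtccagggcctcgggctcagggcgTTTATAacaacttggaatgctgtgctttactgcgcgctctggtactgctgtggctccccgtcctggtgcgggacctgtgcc
SERTAD1: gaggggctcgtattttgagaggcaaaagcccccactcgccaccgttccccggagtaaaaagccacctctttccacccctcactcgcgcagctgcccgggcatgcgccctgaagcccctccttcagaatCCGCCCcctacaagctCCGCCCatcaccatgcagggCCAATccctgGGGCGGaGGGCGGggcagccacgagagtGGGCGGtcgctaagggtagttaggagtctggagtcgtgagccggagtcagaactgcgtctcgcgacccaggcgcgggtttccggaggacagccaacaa
CCNE1: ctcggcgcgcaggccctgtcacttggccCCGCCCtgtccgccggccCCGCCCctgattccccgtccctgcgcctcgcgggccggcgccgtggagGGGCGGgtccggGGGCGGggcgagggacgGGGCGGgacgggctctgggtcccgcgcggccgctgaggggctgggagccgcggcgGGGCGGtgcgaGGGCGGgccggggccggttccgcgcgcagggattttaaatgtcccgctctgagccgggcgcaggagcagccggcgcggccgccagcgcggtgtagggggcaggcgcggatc
RND3 held 1 TATAAA and 2 CCAAT matches and no GGGCGG, NUAK2 held 1 TATAAA, 1 GGGCGG and 2 CCAAT, SERTAD1 held 5 GGGCGG and 1 CCAAT, and CCNE1 held 7 GGGCGG and no other match. Their GC content ranged from 51.7% in RND3 to 81.0% in CCNE1. Of the 919 late-loss genes 762 had a promoter in the table (symbols or unique synonyms). GGGCGG was found in 76.1% of these, CCAAT in 36%, CACGTG in 12.6%, TATAAA in 5.25%, TGANTCA in 4.33% and TGACGTCA in 2.89%. In the 10976 tested genes with a promoter the shares in the same order were 69.7%, 36.6%, 10.2%, 5.76%, 4.62% and 3.26%, and among all 27305 promoters, which include those of unexpressed genes, 44.6%, 35.7%, 7.44%, 11.9%, 7.76% and 1.98%. Only 77.0% of the tested genes and 82.9% of the late-loss genes had a promoter in the table, so the check against tested genes is void, and nothing is read from these shares.

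Some late-loss transcripts went from above to under 1 FPKM, in about the same share as over all genes. Of 11304 genes above 1 FPKM in both 50 nM libraries, 1357 (12.01%) were under 1 in both 250 nM libraries, 120 of them late-loss (13.06% of the class). Of 132 genes that went from above 5 FPKM in both to under 1 in both, 30 were late-loss and 22 had already fallen at 50 nM. Over all genes tested 6.45% were late-loss and 11.3% had fallen at 50 nM. A fall of this size already meets the step limit of the class, so nothing is read from the difference in share. Besides NUAK2, FAM46B and TRIB1, these 30 included TIPARP, a target of the aryl hydrocarbon receptor, with 14.4 and 12.6 FPKM at 50 nM and 0.709 and 0.826 at 250 nM. BAMBI, a decoy receptor of the TGF-beta family, had 7.75 and 8.17 FPKM at 50 nM and 0.345 and 0.258 at 250 nM. AXIN2, the feedback inhibitor of Wnt signalling, had 6.16 and 5.46 FPKM at 50 nM and 0.656 and 0.887 at 250 nM, and RGS2, which shortens G protein signals, had 7.899 and 8.14 FPKM at 50 nM and 0.575 and 0.612 at 250 nM. GATA6, a lineage transcription factor, had 5.34 and 5.26 FPKM at 50 nM and 0.425 and 0.453 at 250 nM. ING1, a chromatin reader, had 9.04 and 9.92 FPKM at 50 nM and 0.625 and 0.522 at 250 nM. CXCR4, the receptor of the chemokine CXCL12, had 8.15 and 7.401 FPKM at 50 nM and 0.595 and 0.661 at 250 nM. All of these fell at the step, by -3.04 for TIPARP, -2.78 for BAMBI, -1.94 for AXIN2, -2.50 for RGS2, -2.13 for GATA6, -2.74 for ING1 and -2.43 for CXCR4. Except for BAMBI they were chosen after their values were seen. The CXCR4 call was lost without any 1 of the 4 libraries compared (adjusted p of up to 0.0031), and that of AXIN2 without replicate 1 at either dose or without 250 nM replicate 2 (up to 0.001401).

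At the abundant end the class held LDHA, the lactate dehydrogenase subunit, with 502 and 450.0 FPKM with DMSO, 421 and 394 at 50 nM, and 197 and 179 at 250 nM. Its step was -1.11 ± 0.08 (SE, adjusted p = 1.29e-04). PTBP1, a splicing repressor, had 249.8 and 243 FPKM at 50 nM and 110.4 and 109 at 250 nM, and ARHGAP29, a GTPase activator, had 222 and 195 FPKM at 50 nM and 50.1 and 52.5 at 250 nM. The steps were -1.16 for PTBP1 and -1.998 for ARHGAP29. GADD45A, a stress-induced p53 target, had 122 and 116 FPKM at 50 nM and 36.3 and 33.3 at 250 nM, a step of -1.74. Late losses were most frequent among genes at 20 to 100 FPKM at 50 nM (347 of 2953, 11.8%) and at 5 to 20 FPKM (426 of 4291, 9.93%). They made up 3.17% of the 1011 genes over 100 FPKM and 3.41% of the 3346 genes at 1 to 5. On the log2(FPKM + 1) scale a step of -1 is out of reach for genes under 1 FPKM, and none of 2650 such genes was in the class. With equal medians the step turns to 0.16 for LDHA and 0.10 for PTBP1, and GADD45A, at -0.49, loses its call, as LDHA (-0.21) and PTBP1 (-0.27) do with median-of-ratios scaling. PTBP1, ARHGAP29 and GADD45A were named after their values were seen. The LDHA call was lost without replicate 1 at either dose or 250 nM replicate 2 (adjusted p of up to 0.00139).

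Transcripts of the kinases that THZ1 binds fell at 250 nM on the spike-in scale and had not passed the test at 50 nM. Of 14 transcriptional CDKs and their cyclins none had fallen at 50 nM (median -0.13, against 11.3% and -0.40 over all genes tested), and 10 fell at the step (median -1.43, against 36% and -0.62 over all genes tested), 3 of them late-loss (against 6.45% of all genes). CDK7 itself measured 26.3 and 19.5 FPKM with DMSO, 16.8 and 13.98 at 50 nM, and 3.49 and 3.22 at 250 nM, a step of -1.91 ± 0.17 (SE, adjusted p = 2.08e-04). CDK12 measured 21.7 and 17.2 FPKM with DMSO, 16.3 and 14.1 at 50 nM, and 2.84 and 3.17 at 250 nM, a step of -2.02 ± 0.15 (SE, adjusted p = 1.20e-04). CDK13 measured 16.4 and 13.9 FPKM with DMSO, 13.5 and 12.2 at 50 nM, and 2.01 and 2.38 at 250 nM and was late-loss, with a step of -2.12 ± 0.14 (SE, adjusted p = 8.61e-05). CCNT1, the cyclin of the elongation kinase CDK9, measured 10.1 and 7.89 FPKM with DMSO, 13.2 and 11.7 at 50 nM, and 1.502 and 1.83 at 250 nM. Its 50 nM libraries lay above both DMSO libraries (log2 fold change 0.43, not called), and its step was -2.33 ± 0.16 (SE, adjusted p = 1.03e-04). The calls of these 4 were lost without 50 nM replicate 1 or without 250 nM replicate 1, at adjusted p of up to 0.00199 for CDK7, 0.00142 for CDK12, 0.001098 for CDK13 and 0.00125 for CCNT1. CDK7 and CDK12 also lost theirs without 250 nM replicate 2, and CDK7 without 50 nM replicate 2. With equal medians the CDK7 step was -0.84 and its call was lost (adjusted p = 0.00189).

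Of 20 polymerase II elongation factors and partners 16 fell at the step (80.0%, against 36% of all genes tested, median -1.25), 7 of them late-loss (35.0%, against 6.45%), and 3 had fallen at 50 nM, near the 11.3% of all genes. LEO1, a subunit of the PAF1 complex that travels with polymerase, was late-loss, with 26.1 and 20.6 FPKM with DMSO, 23.04 and 20.6 at 50 nM, and 3.22 and 3.61 at 250 nM. Its step was -2.37 ± 0.14 (SE, adjusted p = 7.20e-05). MEPCE and HEXIM1, which hold P-TEFb inactive in the 7SK particle, differed at the first dose. MEPCE had fallen by then, with 68.2 and 61.8 FPKM with DMSO, 16.9 and 14.3 at 50 nM, and 2.17 and 1.198 at 250 nM, and fell again by a step of -2.65, a call lost without 50 nM replicate 1 (adjusted p = 0.00113). HEXIM1 measured 26.5 and 25.1 FPKM with DMSO, 16.1 and 15.1 at 50 nM, and 1.96 and 2.65 at 250 nM, a step of -2.34 ± 0.13 (SE, adjusted p = 6.64e-05). POLR2A, the catalytic subunit of polymerase II, took another course. It measured 133 and 118 FPKM with DMSO, 223 and 214 at 50 nM, and 61.8 and 70.2 at 250 nM. It rose at 50 nM (0.80 ± 0.09 (SE, adjusted p = 9.93e-04)) and fell at the step (-1.72 ± 0.09 (SE, adjusted p = 5.67e-05)) to under the DMSO level. With equal medians the calls of POLR2A and MEPCE at the step were lost (-0.45 and -1.75, adjusted p = 0.0025 and 0.00205), and that of MEPCE also with median-of-ratios scaling (-2.01, adjusted p = 0.00112).

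POLR2A was 1 of 10 genes that rose at 50 nM and fell at the step, 0.0842% of all genes having risen at 50 nM. The other 9 were ID2, NXF1, PCDH7, SUV420H1, MGC12916, MIRLET7DHG, SNORA34, SNORA60 and SNORD15A, given because the count is small, and apart from SNORA34 and SNORA60 not chosen by the rule. ID2, an inhibitor of basic helix-loop-helix factors, measured 18.8 and 15.9 FPKM with DMSO, 46.4 and 42.3 at 50 nM, and 11.8 and 11.01 at 250 nM. NXF1, the mRNA export receptor, measured 55.3 and 49.2 FPKM with DMSO, 111 and 104 at 50 nM, and 50.8 and 49.5 at 250 nM, so that its DMSO and 250 nM libraries overlapped. PCDH7, a protocadherin, measured 48.5 and 44.3 FPKM with DMSO, 74.1 and 73.5 at 50 nM, and 18.9 and 19.4 at 250 nM, and SUV420H1, a histone H4 lysine methyltransferase, 35.8 and 31.99 FPKM with DMSO, 59.2 and 55.4 at 50 nM, and 19.5 and 19.3 at 250 nM. These last both ended under DMSO. SNORA60 and SNORA34, small nucleolar RNAs that lie in introns of other genes, were at the floor of the table in the DMSO and 250 nM libraries (0.0703 to 0.133 FPKM) and at 14.0 to 35.4 FPKM at 50 nM. Such rows can share reads with their host genes, which was not tested, and the SNORA60 call was lost without either 250 nM library (adjusted p of up to 0.00185). The NXF1 call was lost without 50 nM replicate 1 or either 250 nM library (up to 0.00132). With equal medians the steps of ID2, PCDH7 and SUV420H1 (-0.66, -0.66 and -0.28) were not called and that of NXF1 turns to 0.17.

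In 3 lists of feedback and target genes of signalling pathways most members fell at the step, where 36% of all genes tested fell. At 50 nM, where 11.3% of all genes had fallen, the ERK list was near that share and the others were above it. Of 13 ERK feedback genes 11 fell at the step (median -1.52) and 1 had fallen at 50 nM (median -0.64). DUSP5 was the late-loss member. SPRY2, a Sprouty inhibitor of receptor tyrosine kinase signalling, measured 57.9 and 53.1 FPKM with DMSO, 37.6 and 37.03 at 50 nM, and 1.45 and 2.39 at 250 nM, a step of -3.73 ± 0.16 (SE, adjusted p = 4.51e-05). DUSP6, the cytoplasmic ERK phosphatase, measured 30.3 and 26.03 FPKM with DMSO, 16.6 and 14.7 at 50 nM, and 0.893 and 1.29 at 250 nM, a step of -2.999 ± 0.15 (SE, adjusted p = 5.62e-05). Of 13 YAP and TEAD targets and regulators 10 fell (median -1.78), 4 of the list having fallen at 50 nM. AMOTL2, which holds YAP at cell junctions, had one of the largest steps measured, -4.59 ± 0.10 (SE, adjusted p = 2.27e-05), from 110.2 and 113 FPKM at 50 nM to 3.299 and 4.08 at 250 nM. Its DMSO libraries were at 141 and 131 FPKM, so most of its loss came at the step. CYR61, a secreted matrix protein, measured 354 and 322 FPKM with DMSO, 193 and 186 at 50 nM, and 20.4 and 20.2 at 250 nM, a step of -3.16 ± 0.07 (SE, adjusted p = 2.27e-05), and ANKRD1, a nuclear cofactor, 218 and 183 FPKM with DMSO, 57.9 and 49.8 at 50 nM, and 4.46 and 4.87 at 250 nM, a step of -3.27 ± 0.12 (SE, adjusted p = 3.58e-05). Both had already fallen at 50 nM. Of 12 ID, SMAD and Notch targets 9 fell at the step (median -2.02), and 4 had fallen and 1 had risen at 50 nM. ID4 went from 20.4 and 17.8 FPKM at 50 nM to 1.804 and 1.96 at 250 nM, a step of -2.80 ± 0.11 (SE, adjusted p = 4.04e-05). BAMBI was the late-loss member.

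Of 23 immediate early genes 15 fell at the step (65.2%, against 36% of all genes tested, median -1.27), 2 as late losses (8.70%, near the 6.45% of all genes), and 5 had fallen at 50 nM (against 11.3%). IER5 measured 60.01 and 57.1 FPKM with DMSO, 40.1 and 39.5 at 50 nM, and 3.99 and 5.41 at 250 nM, a step of -2.85 ± 0.13 (SE, adjusted p = 4.99e-05). IER3, the most abundant member that did not pass the test, measured 114 and 112 FPKM with DMSO, 95.2 and 89.99 at 50 nM, and 106 and 119 at 250 nM, with a step of 0.28 ± 0.07 (SE, adjusted p = 0.01498) that is called higher with both other scalings (1.17 with median-of-ratios scaling and 1.55 with equal medians). Of 16 NF-kB targets 6 fell at the step (37.5%, near the 36% of all genes tested) and 1 rose, and 6 had fallen at 50 nM, with a median step of -0.23 that turns to 0.32 with median-of-ratios scaling. NFKBIA, the inhibitor that NF-kB induces, measured 149 and 129 FPKM with DMSO, 70.7 and 69.2 at 50 nM, and 8.001 and 8.61 at 250 nM, a step of -2.93 ± 0.09 (SE, adjusted p = 2.79e-05). TNFAIP3, the ubiquitin-editing enzyme A20, was late-loss, with 14.9 and 14.1 FPKM with DMSO, 12.9 and 11.3 at 50 nM, and 1.93 and 3.02 at 250 nM. Its step was -1.93 ± 0.18 (SE, adjusted p = 2.34e-04), a call lost without either 50 nM library or without 250 nM replicate 1 (adjusted p of up to 0.00222). That call was also lost with median-of-ratios scaling (-1.23) and with equal medians (-0.93). IL8, the neutrophil chemokine, was the member that rose. It measured 75.8 and 62.2 FPKM with DMSO, 31.3 and 28.4 at 50 nM, and 74.8 and 72.8 at 250 nM. It had fallen at 50 nM (-1.18 ± 0.11 (SE, adjusted p = 5.82e-04)) and at 250 nM both libraries lay within the DMSO range, a step of 1.28 ± 0.11 (SE, adjusted p = 1.76e-04) that lost its call without any 1 of the 4 libraries compared (adjusted p of up to 0.00195). CCL2, the monocyte chemokine, measured 294 and 261 FPKM with DMSO, 149 and 129.8 at 50 nM, and 196 and 174 at 250 nM. It had fallen at 50 nM, and its step of 0.41 ± 0.10 (SE, adjusted p = 0.0119) did not pass the test on the spike-in scale, while it is called higher with median-of-ratios scaling (1.31) and with equal medians (1.68).

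Both 250 nM libraries lay above both 50 nM libraries in 1.26% of the genes tested, IL8 among them. The other 5 genes that rose at the step were H3F3A, MIR3916, MIR612, MIR941-2 and PPAN-P2RY11. All were at 0.104 to 0.135 FPKM in the 50 nM libraries. H3F3A, which encodes histone H3.3 and has near-identical copies in the genome, was at 6.47 and 10.3 FPKM at 250 nM. MIR3916 was at 82.9 and 173 FPKM at 250 nM but also at 209 and 368 FPKM with DMSO. MIR612 reached 51.4 and 161 FPKM and MIR941-2 reached 9.55 and 10.2. PPAN-P2RY11, a readthrough transcript of 2 neighbouring genes, reached 0.932 and 1.47. Whether reads of these 5 were shared with other genes was not tested, and their values are uncertain. The MIR612 call was lost without 50 nM replicate 1 and that of PPAN-P2RY11 without either 50 nM or either DMSO library (adjusted p of up to 0.00122 and 0.00359). At an unadjusted p under 0.05, 44 genes were higher.

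MYC lost most of its transcript at the step, and most members of its network and target lists, which hold MYC itself, also fell on the spike-in scale. MYC measured 82.5 and 73.9 FPKM with DMSO, 51.2 and 49.2 at 50 nM, and 3.11 and 3.301 at 250 nM. Its fall at 50 nM did not pass the test (-0.63 ± 0.08 (SE, adjusted p = 0.00192)), and its step was -3.61 ± 0.08 (SE, adjusted p = 2.27e-05), so that it missed the late-loss class by the limit for 50 nM. PVT1, a long noncoding RNA beside MYC, measured 22.2 and 17.7 FPKM with DMSO, 16.1 and 14 at 50 nM, and 12.04 and 15.6 at 250 nM, with overlapping doses and a step of -0.12 ± 0.17 (SE, adjusted p = 0.529). That value turns to 0.0503 without 250 nM replicate 1, to 0.73 with median-of-ratios scaling and to 1.09 with equal medians. Of 11 members of the MYC network 8 fell at the step (72.7%, against 36% of all genes tested, median -1.27), with 1 having fallen at 50 nM (against 11.3% of all genes). MAX, the partner of MYC, went from 18.7 and 16.3 FPKM at 50 nM to 5.11 and 4.84 at 250 nM, a step of -1.63 ± 0.11 (SE, adjusted p = 9.34e-05), a call lost without 50 nM replicate 1 or either 250 nM library (adjusted p of up to 0.00119). With equal medians its step of -0.50 was not called. Of 58 genes on a MYC target list written from general knowledge 42 fell at the step (72.4%, against 36% of all genes tested). Their median step was -0.97, and 0.15 with equal medians. At 50 nM 11 had fallen, where 11.3% of all genes had, and 3 were late-loss (5.17%, near the 6.45% of all genes). MPHOSPH10, a ribosomal RNA processing factor, went from 32.7 and 27.2 FPKM at 50 nM to 2.95 and 3.06 at 250 nM, a step of -2.94 ± 0.14 (SE, adjusted p = 5.35e-05). NPM1, nucleophosmin, was the most abundant member that did not pass, with 2933 and 2618 FPKM at 50 nM and 2085 and 1820 at 250 nM.

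Among regulators of cell death, MCL1 and BCL2L1 fell at the step and BAX had fallen at 50 nM. MCL1, a short-lived protector of mitochondria, measured 142 and 124 FPKM with DMSO, 106 and 92.6 at 50 nM, and 10.1 and 17.9 at 250 nM. Its step was -2.79 ± 0.24 (SE, adjusted p = 1.95e-04), and the call was lost without either 50 nM library (adjusted p of up to 0.00163). It was also lost with median-of-ratios scaling (-1.94, adjusted p = 0.00141) and with equal medians (-1.58, adjusted p = 0.0016). BCL2L1, which encodes BCL-xL, measured 214 and 199.8 FPKM with DMSO, 168 and 164 at 50 nM, and 26.8 and 30.7 at 250 nM, a step of -2.49 ± 0.08 (SE, adjusted p = 3.04e-05). BAX, which permeabilizes mitochondria, measured 69.4 and 61.8 FPKM with DMSO, 32.8 and 29.7 at 50 nM, and 28.1 and 24.8 at 250 nM. It had fallen at 50 nM (-1.04 ± 0.10 (SE, adjusted p = 6.62e-04)), and its step of -0.24 ± 0.10 (SE, adjusted p = 0.0758) did not pass the test and turns to 0.64 with median-of-ratios scaling. In all, 7 of 15 BCL2 family genes fell at the step (46.7%, against 36% of all genes tested, median -0.80). At 50 nM 2 had fallen (against 11.3% of all genes). None was late-loss, in a class that holds only 6.45% of all genes. Of 6 inhibitors of apoptosis 3 fell at the step (50.0%, against 36% of all genes tested, median -0.97, and 0.00557 with equal medians).

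Transcription factors of the ovarian and Müllerian lineage included genes lost at either dose. Of 9, 5 had fallen at 50 nM (against 11.3% of all genes tested) and 7 fell at the step (77.8%, against 36% of all genes, median -1.67). None was late-loss, in a class that holds only 6.45% of all genes. SOX17, an endodermal and Müllerian factor, measured 139 and 146 FPKM with DMSO, 30.3 and 33.9 at 50 nM, and 1.06 and 1.104 at 250 nM. It lost most of its transcript at 50 nM (-2.12 ± 0.09 (SE, adjusted p = 2.23e-04)) and the step was -3.99 ± 0.09 (SE, adjusted p = 2.27e-05). WT1 measured 60.1 and 53.4 FPKM with DMSO, 32.7 and 30.4 at 50 nM, and 2.14 and 2.75 at 250 nM, a step of -3.24 ± 0.12 (SE, adjusted p = 3.88e-05), and EMX2, a homeobox factor of the reproductive tract, 44.4 and 39.3 FPKM with DMSO, 28.2 and 23.5 at 50 nM, and 3.001 and 3.66 at 250 nM, a step of -2.63 ± 0.13 (SE, adjusted p = 5.67e-05). Neither WT1 nor EMX2 passed the test at 50 nM.

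Of 14 genes of the ATF4 stress response 9 fell at the step (64.3%, against 36% of all genes tested, median -1.11). Of the 14, 3 were late-loss (21.4%, against 6.45% of all genes) and 4 had fallen at 50 nM, where 11.3% of all genes had. SESN2, a sestrin that restrains mTORC1, measured 9.06 and 7.83 FPKM with DMSO, 9.04 and 10.1 at 50 nM, and 0.579 and 0.704 at 250 nM, a step of -2.69 ± 0.14 (SE, adjusted p = 5.67e-05). CEBPG, a partner of ATF4, measured 29.8 and 24.8 FPKM with DMSO, 26.4 and 23.6 at 50 nM, and 3.75 and 4.62 at 250 nM, a step of -2.33 ± 0.14 (SE, adjusted p = 7.14e-05). Of 15 heat shock genes 10 fell (66.7%, median -0.71, and 0.18 with median-of-ratios scaling) and 1 was late-loss, 6.67% and so near the share over all genes. DNAJB1, an HSP40 cochaperone, had lost most of its transcript by 50 nM (72.9 and 64.2 FPKM with DMSO, 22.3 and 21.8 at 50 nM, and 1.495 and 1.47 at 250 nM) and its step was -3.21 ± 0.10 (SE, adjusted p = 2.79e-05). HSPA1A and HSPA1B, near-identical inducible HSP70 genes whose reads cannot be told apart with certainty, went from 148 and 151 FPKM at 50 nM to 25.3 and 26.8 at 250 nM for HSPA1A and 175 and 176 FPKM at 50 nM and 29.9 and 31.6 at 250 nM for HSPA1B. Their steps were -2.48 and -2.48, and in both the 50 nM libraries lay above both DMSO libraries.

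Of 54 G2/M genes 39 fell at the step (72.2%, against 36% of all genes tested, median -1.10, and 0.0814 with equal medians), 4 as late losses (7.41%, against 6.45%), and 14 had fallen at 50 nM (against 11.3% of all genes). Of 43 S phase genes 21 fell (48.8%, median -0.87, and 0.023 with median-of-ratios scaling), 2 as late losses (4.65%), and 5 had fallen at 50 nM. The difference between these lists was not tested. HJURP, the chaperone of the centromeric histone CENP-A, measured 57.8 and 54.7 FPKM with DMSO, 33.04 and 29.5 at 50 nM, and 1.85 and 1.73 at 250 nM, a step of -3.53 ± 0.09 (SE, adjusted p = 2.63e-05). AURKA, the mitotic Aurora A kinase, measured 103 and 89.3 FPKM with DMSO, 42.4 and 40 at 50 nM, and 3.796 and 3.58 at 250 nM, a step of -3.17 ± 0.09 (SE, adjusted p = 2.79e-05). SLBP, which binds the end of histone mRNAs, was late-loss, with 69.8 and 65.5 FPKM with DMSO, 67.3 and 57.2 at 50 nM, and 15.3 and 13.6 at 250 nM and a step of -2.04 ± 0.10 (SE, adjusted p = 5.67e-05) that was not called with equal medians (-0.82). FBXO5, an inhibitor of the anaphase-promoting complex, had one of the largest steps of all, -4.004 ± 0.12 (SE, adjusted p = 2.79e-05), from 34.4 and 29.1 FPKM at 50 nM to 0.996 and 1.07 at 250 nM. TYMS, thymidylate synthase, measured 157 and 151 FPKM at 50 nM and 114 and 107 at 250 nM and did not pass (step -0.48, and 0.42 with median-of-ratios scaling). Of 21 homologous recombination genes 4 fell at the step, 19.0% against 36% of all genes tested (median -0.59, and 0.0512 with median-of-ratios scaling). At 50 nM 5 had fallen, where 11.3% of all genes had. Their median level at 50 nM was 4.6 FPKM, and 23.2% of all genes at 1 to 5 FPKM fell at the step.

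Housekeeping lists had median steps near or above that of all genes, and their direction depends on the scale. At the step 36% of all genes tested fell. Of 78 ribosomal protein genes 2 did (2.56%, median -0.31, and 0.59 with median-of-ratios scaling). RPL18 fell, with a step of -0.57, from 719 and 736 FPKM at 50 nM to 500.3 and 480.0 at 250 nM, and RPS18, the most abundant that did not pass, measured 6307 and 6235 FPKM at 50 nM and 5208 and 4755 at 250 nM. Of 74 respiratory chain genes 28 fell (37.8%, near the share of all genes, median -0.49, and 0.41 with median-of-ratios scaling), of 18 glycolysis genes 9 (median -0.54, and 0.36), of 34 proteasome genes 24 (median -0.69, and 0.21) and of 29 SR and hnRNP splicing factors 15 (median -0.62, and 0.27). At 50 nM none of the ribosomal protein, glycolysis or proteasome genes had fallen, 1 respiratory chain gene had, and so had 8 of the splicing factors, where 11.3% of all genes tested had fallen. SDHA, a subunit of respiratory complex II, was late-loss on the spike-in scale, with 114 and 106 FPKM with DMSO, 106 and 109 at 50 nM, and 49.4 and 49.2 at 250 nM and a step of -1.11 ± 0.06 (SE, adjusted p = 6.56e-05). PSMD12, a proteasome lid subunit, was too, with 75.1 and 66.97 FPKM with DMSO, 74.3 and 69.5 at 50 nM, and 30.02 and 29.9 at 250 nM and a step of -1.24 ± 0.08 (SE, adjusted p = 8.36e-05). Neither call held with median-of-ratios scaling (-0.22 for SDHA and -0.36 for PSMD12), and the steps turn to 0.15 for SDHA and 0.0133 for PSMD12 with equal medians. GAPDH, often used as a reference, measured 4494 and 4305 FPKM with DMSO, 4429 and 4517 at 50 nM, and 3398 and 3198 at 250 nM and did not pass the test (step -0.44, 0.46 with median-of-ratios scaling and 0.84 with equal medians). S100A4, a calcium-binding protein and the most abundant protein-coding gene that did not pass, measured 8605 and 7727 FPKM with DMSO, 8544 and 7891 at 50 nM, and 7224 and 6313 at 250 nM. The PSMD12 call was lost without 50 nM replicate 1 or either 250 nM library (adjusted p of up to 0.00111), and that of RPL18 without any 1 of the 4 libraries compared or without DMSO replicate 2 (up to 0.00428). Of 42 replication-dependent histone genes, many of whose mRNAs lack a poly(A) tail, 3 fell (median -0.26, and 0.22 with median-of-ratios scaling). Of 257 small RNA rows 8 fell and 3 rose (median -0.04, and 0.0429 with median-of-ratios scaling). The median level at 50 nM was 2.35 FPKM for these histone genes. For the small RNA rows it was 0.111 FPKM, a level at which log2(FPKM + 1) can hardly fall.

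**Figure D3:**
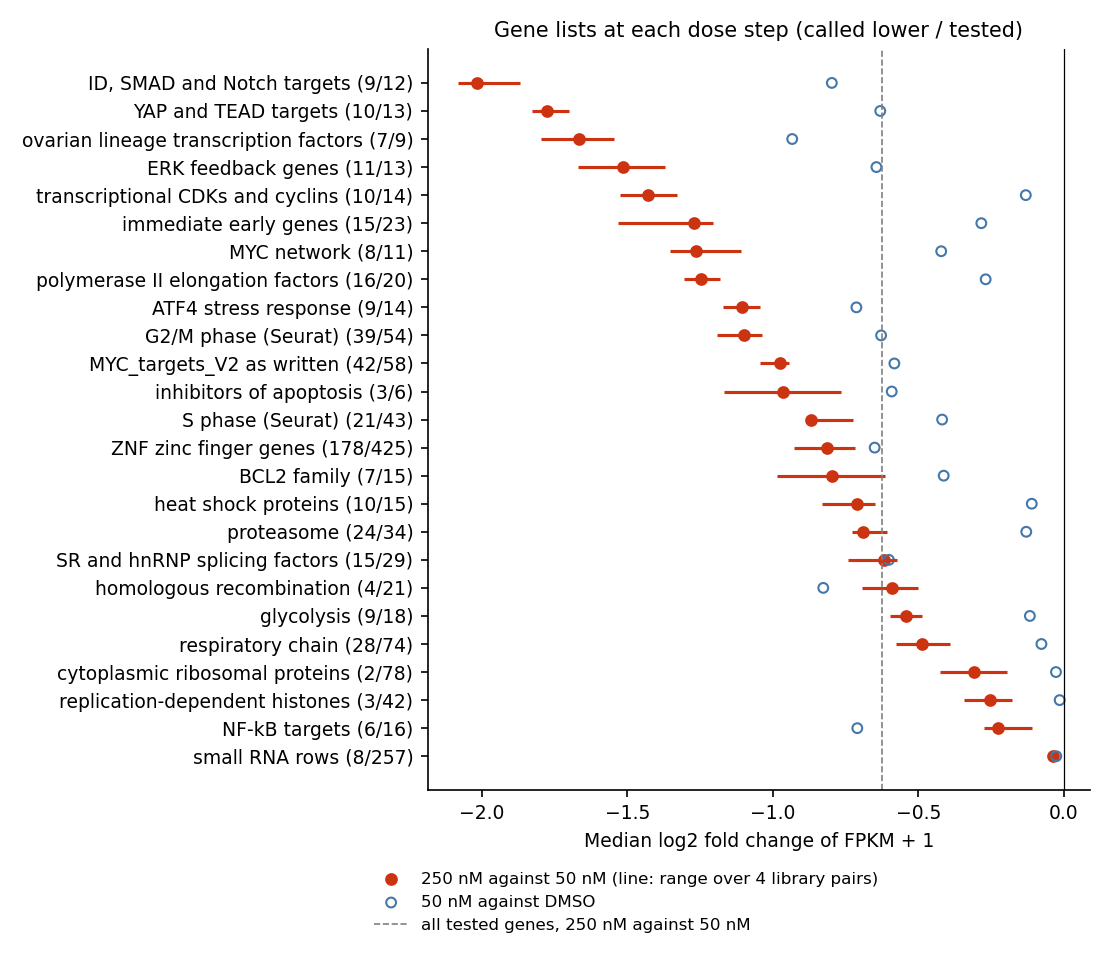
Median log2 fold change of FPKM + 1 for each gene list, from 50 nM to 250 nM (red, with a line for the range over the 4 pairs of libraries) and from DMSO to 50 nM (blue, open), with the number called lower at the step and the number tested in brackets and the median step of all genes dashed. Transcriptional CDKs lie near 0 at 50 nM and at -1.43 at the step on the spike-in scale, and all lists from G2/M genes downward, other than ZNF genes and the BCL2 family, turn positive on 1 or both of the other scales.

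Late-loss genes were found in several families of regulators. Of 425 KRAB-type and other genes with the ZNF symbol 178 fell at the step (41.9%, against 36% of all genes tested, median -0.81) and 37 were late-loss (8.71%, against 6.45% of all genes tested), 89 having fallen at 50 nM (against 11.3% of all genes). ZNF92 went from 8.17 and 7.51 FPKM at 50 nM to 0.317 and 0.47 at 250 nM and ZNF134 from 8.7 and 6.65 FPKM at 50 nM to 0.368 and 0.372 at 250 nM. The ZNF134 call was lost without 50 nM replicate 1 or either 250 nM library (adjusted p of up to 0.00138). Across 105 groups of at least 12 tested genes sharing a symbol stem, the highest late-loss shares were 4 of 13 for AKAP, anchors of protein kinase A, and 4 of 13 for KLF, Krüppel-like transcription factors. Next came 9 of 33 for MAP, a stem of kinases upstream of the MAP kinases and of microtubule proteins such as MAP1B, and 9 of 34 for RBM, RNA-binding motif proteins. KDM, lysine demethylases, had 4 of 16, and PHF, PHD finger proteins, 5 of 20. These groups are counts ordered after the values were seen, with no test. KLF5, an epithelial Krüppel-like factor, went from 57.1 and 50.9 FPKM at 50 nM to 4.304 and 5.46 at 250 nM, a step of -3.23 ± 0.12 (SE, adjusted p = 3.88e-05). ARID1A, a subunit of the BAF chromatin remodeller, and REST, a repressor of neuronal genes, were late-loss as well. ARID1A measured 37.8 and 33.8 FPKM at 50 nM and 3.88 and 4.75 at 250 nM, and REST 15.1 and 12.8 FPKM at 50 nM and 2.15 and 2.58 at 250 nM. The REST call was lost without replicate 1 at either dose (adjusted p of up to 0.00125).

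Genes lost late were longer at the median than those already lost at 50 nM. In 912 late-loss genes with an annotated transcript the median span from start to end of the canonical transcript was 43.2 kb, against 26.9 kb over all genes tested and 13.2 kb for the genes that had fallen at 50 nM. Among protein-coding genes the late-loss share was 1.91% under 5 kb, 4.52% at 5 to 15 kb, 7.85% at 15 to 50 kb, 10.0% at 50 to 150 kb and 8.57% over 150 kb. The share already lower at 50 nM went the other way, from 22.1% under 5 kb to 16.9%, 10.4%, 6.54% and 3.12%. Genes lower at 50 nM cannot be late-loss by definition, so these shares are not independent. The median change at 50 nM was -0.43, -0.47, -0.42, -0.38 and -0.30 over the same spans. Over the 4 pairs of Ku libraries the lowest value in each span was -0.52, -0.57, -0.56, -0.54 and -0.47. The highest was -0.36, -0.38, -0.29, -0.22 and -0.13. In COV362 the median change at 50 nM was -0.73, -0.82, -0.90, -0.92 and -0.82. The share that fell at the step differed less, at 35.3%, 40.7%, 40.9%, 40.1% and 29.0%. Among genes above 10 FPKM with DMSO the late-loss shares were 2.28%, 5.19%, 9.68%, 12.3% and 13.4%. By exon number the share of protein-coding genes lower at 50 nM was 38.2% of 293 with 1 exon, 21.4% at 2 to 3 exons, 12.9% at 4 to 6, 10.8% at 7 to 12 and 6.06% at 13 or more. The late-loss share was 2.05% with 1 exon and differed little above that, at 6.67%, 6.41%, 6.93% and 8.003%. The 157 late-loss genes with a step of -2 or lower were not long, with a median span of 25.2 kb. These are descriptions across genes, which are not independent, and length goes with level here, the median DMSO FPKM being 17.5 under 5 kb and 7.18 over 150 kb.

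**Figure D4:**
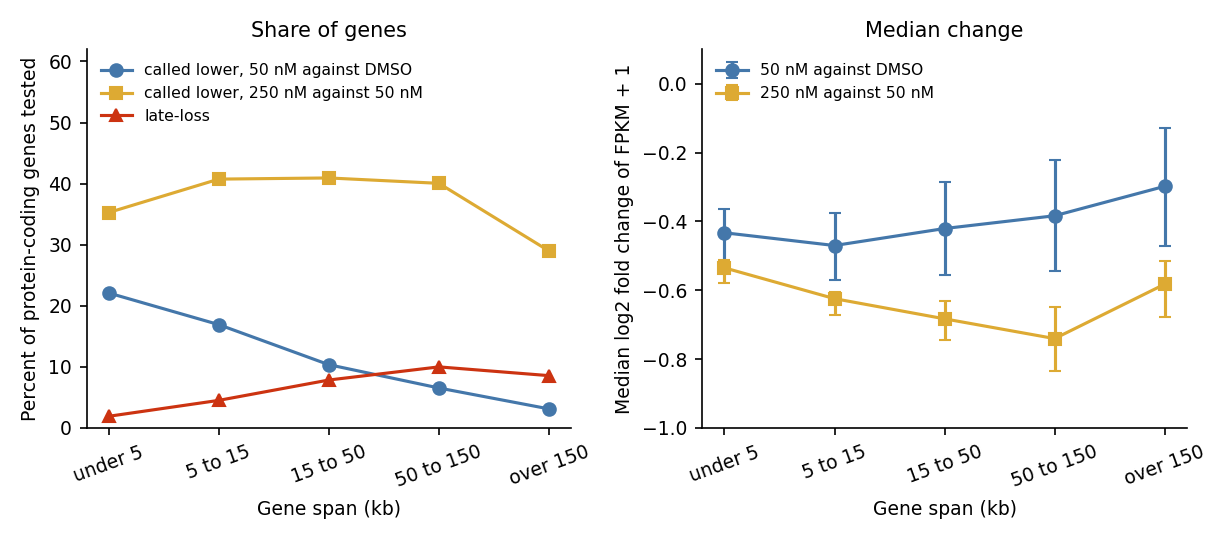
Protein-coding genes in KURAMOCHI by gene span in kb: left, the percent called lower at each dose step and the percent late-loss, and right, the median log2 fold change of FPKM + 1 at each step, with bars for the range over the 4 pairs of libraries. The share lost at 50 nM declines from 22.1% to 3.12% with span while the late-loss share is highest, 10.0%, at 50 to 150 kb.

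The 3′ untranslated regions of late-loss genes had a median length of 1996 bases and 2.23 copies of ATTTA, the core of AU-rich decay elements, per kb, against 1374 bases and 1.80 over all genes tested. In genes already lower at 50 nM the medians were 1254 bases and 1.38 copies per kb, and in the other 2679 genes with a step of -1 or lower 1515 bases and 1.87. In the 157 late-loss genes with a step of -2 or lower they were 1506 bases and 2.33, so that the median length of the largest late losses was nearer to that of all genes. By gene type, 38.9% of 12885 protein-coding genes and 8.41% of 345 long noncoding RNA genes fell at the step, 905 and 5 of them as late losses.

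In COV362 the late-loss genes of Ku mostly fell at the step to 250 nM as well, and the share that had already fallen at 50 nM was near that of all genes tested. Of the 919, 709 fell at the Cov step (77.2%, against 24.4% of all genes tested and 68.2% of the other 2679 Ku genes with a step of -1 or lower). Their median Cov step was -1.07 (quartiles -1.41 and -0.77), against -0.41 over all genes. In 908 both Cov libraries at 250 nM were under both at 50 nM, and 4 had a Cov step above 0. At 50 nM 641 of the 919 had fallen in Cov, 69.7% against 70.5% of all genes tested, and 35 had stayed within 0.25 log2 units of DMSO (3.81%, against 6.92% of all genes). The tables of the lines were normalized separately, so differences between lines were not tested. RND3 had a Cov step of -3.21 ± 0.13 (SE, adjusted p = 3.38e-05), YTHDF2 -2.60 ± 0.11 (SE, adjusted p = 3.38e-05), SERTAD1 -2.41 ± 0.09 (SE, adjusted p = 3.38e-05) and CCNE1 -1.89 ± 0.09 (SE, adjusted p = 3.59e-05).

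By the same 3 limits Cov had 36 late-loss genes, 0.253% of those tested against 6.45% in Ku, and 12 genes were late-loss in both lines, 1.31% of those in Ku and 33.3% of those in Cov. They were ADM, AHR, C3orf58, FAM46B, FBXO33, KLHL15, PELI1, SESN3, SOCS5, UBE2D1, ZBTB10 and ZC3HAV1, listed after the overlap was counted. ADM encodes the vasodilator peptide adrenomedullin, AHR the aryl hydrocarbon receptor, PELI1 and UBE2D1 enzymes of ubiquitin transfer, and ZC3HAV1 an antiviral RNA-binding protein. FAM46B measured 5.98 and 7.83 FPKM with DMSO, 5.57 and 5.81 at 50 nM, and 0.352 and 0.446 at 250 nM in Cov. ADM measured 2.29 and 2.48 FPKM with DMSO, 2.29 and 2.54 at 50 nM, and 0.5497 and 0.608 at 250 nM in Cov, and 8.98 and 8.85 FPKM with DMSO, 8.28 and 8.0 at 50 nM, and 1.03 and 0.737 at 250 nM in Ku. AHR measured 5.64 and 6.13 FPKM with DMSO, 4.45 and 5.23 at 50 nM, and 1.06 and 1.07 at 250 nM in Cov, and 5.87 and 5.195 FPKM with DMSO, 5.24 and 4.99 at 50 nM, and 1.36 and 1.38 at 250 nM in Ku, where its call was lost without any 1 of the 4 libraries compared (adjusted p of up to 0.00301), as it was with equal medians (-0.50).

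**Figure D5:**
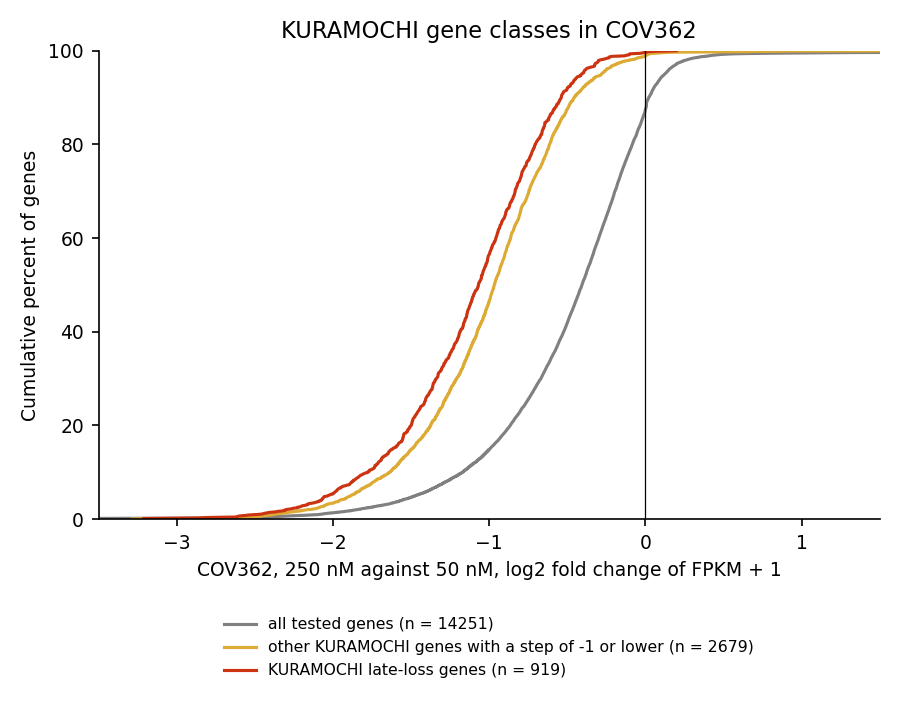
Cumulative percent of genes by their COV362 log2 fold change of FPKM + 1 from 50 nM to 250 nM, for all 14251 tested genes (grey), the other 2679 KURAMOCHI genes with a step of -1 or lower (yellow) and the 919 KURAMOCHI late-loss genes (red). The red curve lies furthest to the left, with a median of -1.07 against -0.97 and -0.41.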

How the data were processed

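The authors treated KURAMOCHI and COV362 cells, mixed ERCC spike-ins into cell-count-normalized RNA, prepared stranded mRNA libraries, aligned reads to hg19 with HISAT and made the deposited FPKM with Cufflinks tools. They scaled the FPKM to the spike-ins and gave each line its own table. The FPKM are not counts, so edgeR, which the authors name, was not used, and the depth is unknown. Samples were grouped by their labels. Values were transformed as log2(FPKM + 1) for the 14251 genes above 1 FPKM in at least 1 of 12 libraries. The lines were fitted apart by limma 3.58.1, run in R 4.3.3 (3 groups of 2 libraries, eBayes with trend, two-sided), with Benjamini-Hochberg adjustment over all tested genes.

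The genes, limits and lists were chosen with earlier results of these data known. Named genes were the 10 largest late losses at a mean of at least 5 FPKM at 50 nM, the 10 largest falls, all rises, genes named by the study, the largest falls and most abundant uncalled member of each list, the 5 most abundant uncalled genes and the genes nearest each limit, of which some are given. Others are said to be chosen after their values were seen. Gene structure came from GENCODE v44 lifted to GRCh37, where 20503 symbols matched directly, 1513 by an older symbol and 1603 not at all (28 rows held dates as symbols). Promoters came from RefSeq (GRCh38.p14). Alternatives were another pseudocount, 3 minimum levels, 2 scalings, leaving out small RNA rows, other fits and thresholds, and leaving out each library.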

Additional observations from a re-analysis of the deposited data

Results flagged for a closer look

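CCL2 moved in opposite directions at the step in the 2 lines. In KURAMOCHI it measured 149 and 129.8 FPKM at 50 nM and 196 and 174 at 250 nM, a log2 fold change of 0.41, with both 250 nM libraries above both 50 nM libraries. In COV362 the 250 nM libraries both lay under the 50 nM libraries, with 387 and 445 FPKM with DMSO, 124 and 128 at 50 nM, and 106 and 91.2 at 250 nM, a log2 fold change of -0.35. Neither step passed the test on the spike-in scale, and the difference between the lines was not tested. Groups of 2 libraries were too small to look for single outlying libraries.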

How the results depend on the processing

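With no minimum level, 1901 genes fell and 3 rose at the step, the median was -0.19 and 412 genes were late-loss. The median step was -0.79 with a pseudocount of 0.1, -0.78 with a minimum of 10 FPKM and -0.70 with the minimum on Ku condition means. At an adjusted p under 0.05, 8295 fell and 19 rose. Late-loss genes numbered 345 with a limit of 0.1 at 50 nM and 157 with a step of -2 or lower. With median-of-ratios scaling 1582 fell, 198 rose, the median was 0.0343 and 416 were late-loss, and with equal median FPKM 939, 943, 0.25 and 210. Leaving out 1 library gave 791 to 4599 falls, 3 to 20 rises, medians of -0.67 to -0.57 and 190 to 1115 late-loss genes, those last counts being without 50 nM replicate 1 and without DMSO replicate 1, and the single-gene calls lost are given with the genes.

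Of the 90 genes named, 69 kept direction and call with median-of-ratios scaling, 11 lost the call and 2 gained one, and with equal medians 59, 15 and 2. The call was lost with median-of-ratios scaling by MEPCE, MCL1, TNFAIP3, LDHA, PSMD12, SDHA, BCLAF1, SOCS6, CCDC93, NXF1 and PTBP1, and with equal medians by CDK7, POLR2A, MEPCE, MCL1, MAX, TNFAIP3, SLBP, SOCS6, CORO1A, CCDC93, AHR, ID2, PCDH7, SUV420H1 and GADD45A, and gained with both by IER3 and CCL2. The direction turned with median-of-ratios scaling to 0.73 for PVT1, 0.46 for GAPDH, 0.64 for BAX, 0.39 for NPM1, 0.33 for RPL18, 0.57 for RPS18, 0.42 for TYMS and 0.62 for S100A4, and with equal medians to 1.09 for PVT1, 0.84 for GAPDH, 1.01 for BAX, 0.77 for NPM1, 0.16 for LDHA, 0.71 for RPL18, 0.94 for RPS18, 0.0133 for PSMD12, 0.15 for SDHA, 0.79 for TYMS, 0.99 for S100A4, 0.25 for BCLAF1, 0.17 for NXF1 and 0.10 for PTBP1. Leaving out 1 library moved PVT1 between -0.30 and 0.0503, the latter without 250 nM replicate 1. List medians turned with median-of-ratios scaling to 0.32 for NF-kB targets, 0.0512 for homologous recombination, 0.18 for heat shock proteins, 0.36 for glycolysis, 0.27 for SR and hnRNP splicing factors, 0.21 for proteasome, 0.59 for cytoplasmic ribosomal proteins, 0.41 for respiratory chain, 0.023 for S phase (Seurat), 0.22 for replication-dependent histones and 0.0429 for small RNA rows, and with equal medians to 0.62 for NF-kB targets, 0.15 for MYC_targets_V2 as written, 0.00557 for inhibitors of apoptosis, 0.24 for homologous recombination, 0.56 for heat shock proteins, 0.73 for glycolysis, 0.65 for SR and hnRNP splicing factors, 0.58 for proteasome, 0.97 for cytoplasmic ribosomal proteins, 0.78 for respiratory chain, 0.38 for S phase (Seurat), 0.0814 for G2/M phase (Seurat), 0.56 for replication-dependent histones and 0.10 for small RNA rows. For the other of these 90 genes and for the other lists these scalings kept the direction, and genes named without a step were not followed.

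The replicate number used as a block gave 4952 falls, 6 rises and 793 late-loss genes. It took the call from SOCS6 and CCDC93 and gave one to NPM1, and changed no other call of a named gene. Same-numbered libraries did not deviate together gene by gene (correlations of 0.00, -0.01 and -0.01). Such correlations do not show an offset shared by all genes, and replicate 1 had the higher summed FPKM at both THZ1 doses. Whether the numbers pair the libraries therefore cannot be told. In the fit of only the groups compared 2 named genes lost their call, and 2 did without the eBayes trend, PPAN-P2RY11 among them each time. With 2 libraries a group the spread of a single gene is poorly known, and without counts the precision at low FPKM is unknown.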
